A study of Rattus norvegicus with 3 samples.

Results

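Pseudogene loci are described here as they were measured in the RNA of extracellular vesicles released by cultured rat adipose-derived mesenchymal stem cells. The members are all rows of the deposited gene table whose biotype contains the word pseudogene, and they number 855 of 29684 rows. Their biotype was pseudogene in 669 rows and processed_pseudogene in 186. By the symbol or description of the row, 17 were copies of ribosomal protein genes, 256 had another name and 582 had no name that identifies a gene. The 256 other named loci consisted of 104 olfactory or vomeronasal receptor pseudogenes, 83 copies of other genes and 69 rows that carry the plain symbol of a gene. The series holds 1 group of 3 libraries, replicates 1 to 3, of vesicles collected from the medium of wild type cells taken from inguinal fat. No untreated or other reference sample enters, so the comparisons are between groups of loci within the same libraries. The study looked for active RNA in these vesicles in connection with premature ovarian insufficiency. Whether each replicate had its own animals or its own culture is not stated in the labels, so the spread between libraries may be technical.

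A pseudogene is a genomic copy of a gene that has lost the ability to make the full protein. A processed pseudogene arises when a messenger RNA is reverse transcribed and inserted elsewhere in the genome, and it lacks introns and, as a rule, the promoter of its parent. Genes with abundant short messenger RNA in the germ line, above all those of ribosomal proteins, leave many such copies. Receptor pseudogenes arise mostly by duplication and decay within the large receptor families. Because a young copy differs from its parent at few bases, a short read from the parent can match both, and a copy inside an intron can take up reads of the unspliced host RNA. How reads with several matches and reads on either strand were counted is not given in the sources used here, so each level below is the level assigned to a locus, and reads of the locus, of its parent and of the surrounding gene cannot be told apart.

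The relation between copy and parent can be read in the DNA around the annotated start. RefSeq windows in the build GRCr8 that run 250 bases before to 50 bases after the start were at hand for 91 members, and in 12 pairs for the parent too. In 5 of those 12 pairs a run of at least 20 bases was shared. The 3 pairs shown here cover the first 30 bases of the parent and up to 60 bases before them, and each pair is aligned on its shared run. Capitals mark that run in the first 2 pairs and every base that is the same in both partners in the third. For LOC100361457, a copy of the cytoskeletal actin gene Actg1, the window shown is chr3:93433985-93434074 on the plus strand, and for Actg1 it is chr10:106120922-106121011 on the minus strand. For LOC120093100, a copy of the chromatin protein gene Hmgn1, it is chr18:46203671-46203760 on the minus strand, and for Hmgn1 chr11:48897703-48897792 on the minus strand. For Cbr1l1, a copy of the carbonyl reductase gene Cbr1, it is chr11:46362535-46362624 on the plus strand, and for Cbr1 chr11:46346345-46346434 on the plus strand. These 3 loci were chosen for their sequences.
LOC100361457: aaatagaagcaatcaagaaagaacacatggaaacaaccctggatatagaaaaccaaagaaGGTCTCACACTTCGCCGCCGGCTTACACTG
Actg1: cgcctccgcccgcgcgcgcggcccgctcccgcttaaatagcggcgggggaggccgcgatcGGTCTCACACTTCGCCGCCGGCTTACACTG
LOC120093100: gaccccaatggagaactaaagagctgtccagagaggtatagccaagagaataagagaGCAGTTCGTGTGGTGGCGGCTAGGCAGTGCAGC
Hmgn1: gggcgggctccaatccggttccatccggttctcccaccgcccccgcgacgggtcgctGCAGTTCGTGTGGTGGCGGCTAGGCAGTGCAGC
Cbr1l1: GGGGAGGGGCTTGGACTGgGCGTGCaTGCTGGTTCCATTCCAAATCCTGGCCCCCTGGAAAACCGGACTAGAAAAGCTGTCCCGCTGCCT
Cbr1: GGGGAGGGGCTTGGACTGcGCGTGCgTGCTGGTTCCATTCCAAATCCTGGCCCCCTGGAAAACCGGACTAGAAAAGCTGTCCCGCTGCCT
LOC100361457 and Actg1 were the same at 100% of the 50 bases after the start and at 17.6% of the 250 bases before it, so within these windows the identity begins at the annotated start. In LOC120093100 the shared run of 35 bases covers positions -3 to 32 of Hmgn1 but positions -78 to -44 of the copy, counted from the start that RefSeq gives each of them. Cbr1l1 and Cbr1 were the same at 90% of the bases before the start and 100% after it, so in this pair the shared bases run on upstream of the start. FPKM are fragments per kilobase of the length that the authors used for a row, scaled to the size of the library. LOC100361457 had 2.95, 4.56 and 3.91 FPKM in replicates 1 to 3, against 32.4, 79.7 and 66.5 FPKM for Actg1. LOC120093100 had 9.23, 6.84 and 0.733 FPKM, against 101, 179 and 175 FPKM for Hmgn1. Both copies lay below their parents in every library. Cbr1l1 had 2.39, 1.43 and 1.03 FPKM, and Cbr1 is not among the coding rows of the table.

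The pseudogene loci lay between receptor genes and other coding genes in level. Their median was 4.37, 3.30 and 3.87 FPKM in replicates 1 to 3, against 2.09, 1.43 and 1.85 FPKM for 216 coding genes of olfactory and vomeronasal receptors. Receptor genes act in sensory neurons and stand here for the level at genes these cells are not known to use. The median of 22745 nuclear protein-coding genes was 5.22, 4.46 and 4.83 FPKM. On the scale log2(FPKM + 1) the median of the pseudogene loci was 0.80 ± 0.03 above that of the receptor genes and -0.27 ± 0.07 relative to the coding genes (mean ± SD of the difference within a library, n = 3 libraries). Both differences had 1 sign in 3 of 3 libraries, and the exact two-sided sign-flip permutation test gave p = 0.25, the smallest value that 3 libraries allow. Where the receptors with Or symbols, the current names of most rat olfactory receptors, were added to make 1314 genes, the difference was 0.41. The first difference was -0.89 in CPM, the counts scaled to library size with no account of length. By the lengths that the deposited counts and FPKM imply, the median locus had 20.9% of the length of the median receptor gene.

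All 855 loci together held 1.50%, 1.27% and 1.32% of the summed FPKM, and 0.749%, 0.674% and 0.705% of the counts. A few loci carry much of this. The 3 highest held 11.8% ± 3.00 of the FPKM of the pseudogene loci and the 12 highest 20.6% ± 4.72 (SD, n = 3). A level of 1 FPKM or more was reached in all 3 libraries by 587 loci (68.7%), against 83.7% of all rows. In 154 loci at least 1 library had 0 counts, and in 123 loci every library had under 10 counts, so single low loci are poorly measured at this depth. Across the 855 loci, levels in pairs of libraries had a Pearson correlation of 0.684, 0.695 and 0.729 on the log2(FPKM + 1) scale, given as a description over loci that share libraries, against 0.823 to 0.855 across the nuclear coding genes.

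**Figure D1:**
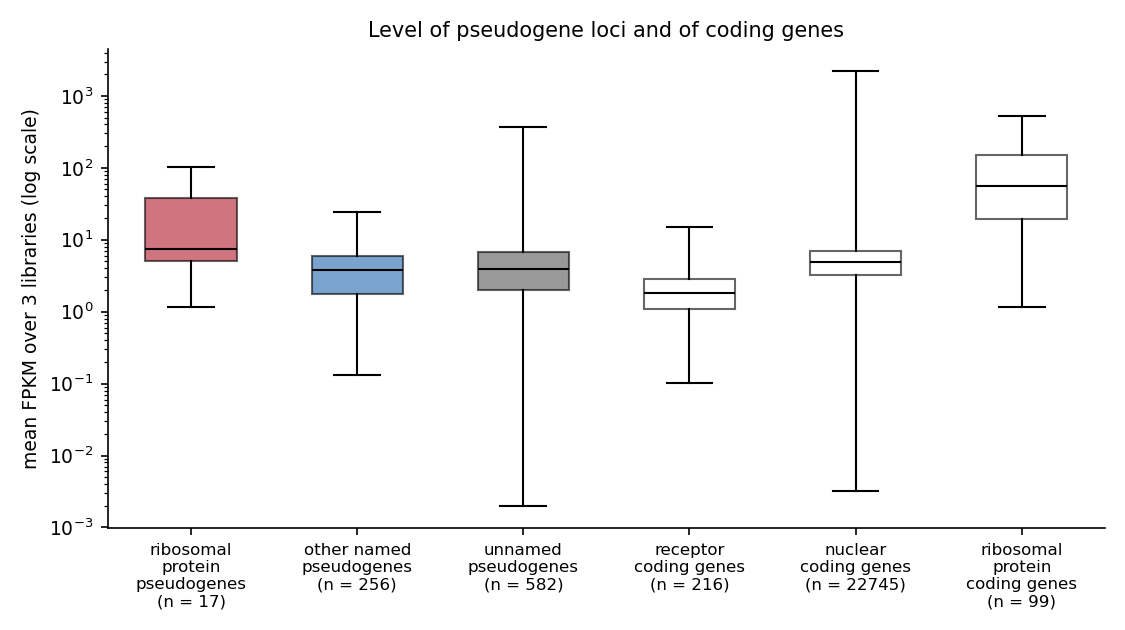
Mean FPKM over 3 libraries (log scale) for each group of loci, with the line at the median, the box from the lower to the upper quartile and the whiskers at the lowest and highest locus. The medians are 7.35 FPKM for the 17 ribosomal protein pseudogenes, 3.82 for the 256 other named and 3.90 for the 582 unnamed ones, against 1.80 for receptor genes, 4.88 for nuclear coding genes and 56.4 for ribosomal protein genes.

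A level above that of the receptor genes was tested for every row with limma's treat, which asks whether log2(FPKM + 1) exceeds the receptor median of the same library by more than 2, and the p-values were adjusted over all rows by Benjamini-Hochberg. At an adjusted p under 0.05, 25 of the 855 pseudogene loci passed, which is 2.92%, against 2.93% of all rows. At this setting the share of pseudogene loci that passed was that of the table as a whole. In CPM (counts scaled to library size) 20 passed, 2.34% against 11.7% of all rows, and with a pseudocount of 0.1 in place of 1 there were 62, 7.25% against 5.30%. The 25 consisted of 4 ribosomal protein loci and 21 unnamed loci, and their mean levels ran from 17.9 to 370 FPKM across the loci. With the Or symbols among the receptor genes 11 (1.29%) passed, against 1.79% of all rows. As a count with no test, 74 loci (8.65%) exceeded the 99th percentile of receptor gene levels in all 3 libraries, against 6.42% of all rows. The call rests on 3 libraries for the whole table. Without replicate 3, 0 loci and 0% of all rows passed by limma's treat. At an unadjusted p under 0.05 there were 52 loci without replicate 3, and the share of all rows at that threshold was not counted. Without replicate 2, 9 loci (1.05%) passed, against 1.51% of all rows.

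The 17 ribosomal protein loci had the highest median of the named groups, with 5.68, 8.12 and 11.0 FPKM in replicates 1 to 3, against 4.07, 3.28 and 3.49 FPKM for the other named loci and 4.40, 3.24 and 3.93 FPKM for the unnamed loci. On the log2(FPKM + 1) scale their median was higher than that of the other named loci by 0.97 ± 0.52 and than that of the unnamed loci by 0.90 ± 0.52 (SD, n = 3 libraries; exact sign-flip permutation p = 0.25 each, the smallest possible). The 3 libraries gave 0.40, 1.09 and 1.43 for the first difference, so it was positive in 3 of 3 and smallest in replicate 1. It was -0.27 in CPM. The other named loci include 104 receptor pseudogenes, which lie low. Against the 83 named copies alone, the difference was smaller, at 0.61 ± 0.43 on the log2(FPKM + 1) scale (SD, n = 3). It was 0.17, 0.63 and 1.03 in replicates 1 to 3. The ribosomal protein group held loci of high and of low level. Of its 17 loci, 6 had a mean of at least 28.9 FPKM, and the other 11 lay between 1.17 and 7.69 FPKM.

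Rpl13a-ps2, a processed copy of the large-subunit gene Rpl13a at chr20:40513536-40513949 (mRatBN7.2, the build of the table), had 72.4, 126 and 109 FPKM, against 95.4, 197 and 195 FPKM for Rpl13a. It was above the receptor median by 5.18 ± 0.26 (SE) on the log2 scale, with an adjusted p of 0.00325 by limma's treat. The copy followed its parent in being lowest in replicate 1, and it lay 0.62 ± 0.22 below the parent on the log2(FPKM + 1) scale (SD, n = 3). Rpl13a-ps4 at chr17:23985665-23986275 had 17.9, 60.6 and 49.2 FPKM and was also lowest in replicate 1. With an adjusted p of 0.0939 it did not pass.

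LOC120097345, a copy of the large-subunit gene Rpl7a at chr1:155597292-155598165, was the 1 ribosomal protein locus above its parent in every library. It had 46.2, 70.8 and 66.8 FPKM, against 2.89, 3.67 and 8.47 FPKM for Rpl7a at chr3:10239001-10241716, a difference of 3.46 ± 0.56 on the log2(FPKM + 1) scale (SD, n = 3). It was 4.46 ± 0.23 (SE) above the receptor median on the log2 scale (adjusted p = 0.00465 by limma's treat), and the values of copy and parent did not overlap. In counts the copy had 308, 567 and 538, against 26, 39 and 90 for the parent. Rpl7a is the lowest of the 13 ribosomal protein parents, whose median was 112 FPKM.

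Rpl8 is a row with the plain symbol of the large-subunit gene, typed as a pseudogene at chr3:8761823-8762671. It had 57.7, 70.8 and 40.9 FPKM and was above the receptor median by 4.34 ± 0.23 (SE; adjusted p = 0.00603 by limma's treat). RefSeq annotates the gene that this row's identifier names as protein-coding, and no coding row of the table has that symbol, so no parent level could be set beside it. Rpl6-ps1, a copy of the large-subunit gene Rpl6 at chr6:123976036-123977001, had 54.9, 34.0 and 24.0 FPKM, against 68.0, 154 and 132 FPKM for Rpl6. The copy was highest in the library in which its parent was lowest. Being highest in replicate 1 was common, at 45.4% of the pseudogene loci and 44.8% of all rows. Rpl6-ps1 passed with an adjusted p of 0.0176 by limma's treat, but not without replicate 2 or 3 nor with the Or symbols (adjusted p = 0.0579).

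**Figure D2:**
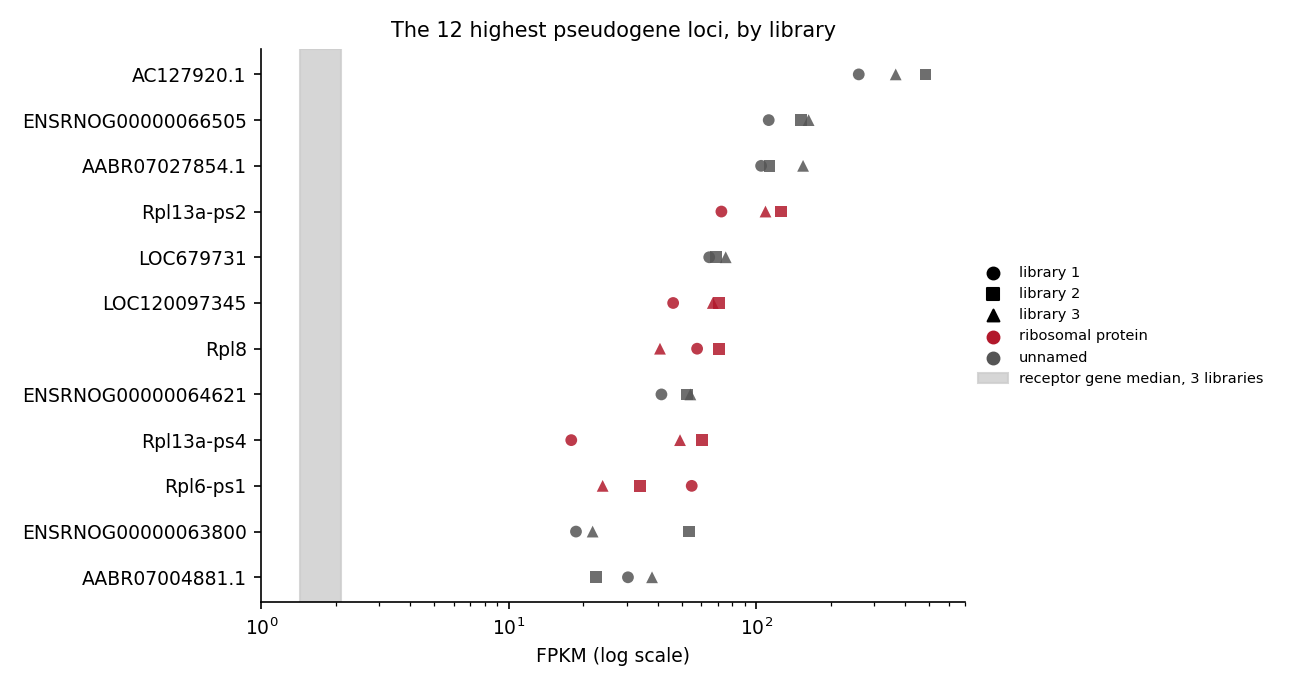
FPKM (log scale) of the 12 pseudogene loci with the highest mean, 1 point per library, with marker shape for the library and colour for the group. All points of these 12 loci lie right of the grey band, the range of the receptor gene median over the 3 libraries, and AC127920.1 is highest in each library with 260 to 484 FPKM.

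Of the 15 ribosomal protein loci with a parent among the coding rows, 13 lay below the parent in every library. The median locus was -3.03 ± 0.54 from its parent on the log2(FPKM + 1) scale (SD, n = 3 libraries; below in 3 of 3, exact sign-flip permutation p = 0.25, the smallest possible). Loci that share a parent are not independent, and the 15 loci have 13 parents. The 3 pairs furthest apart were those of the large-subunit genes Rpl19 and Rpl23a. Rpl19-ps23 at chrX:71267002-71267602 had 5.03, 9.58 and 5.72 FPKM, against 323, 550 and 519 FPKM for Rpl19. Rpl23a-ps5 at chr1:76536881-76537093 had 4.39, 0 and 11.0 FPKM and LOC299190 at chr6:103651386-103651852 had 1.73, 4.08 and 6.12 FPKM, against 168, 254 and 268 FPKM for their shared parent Rpl23a. None of these 3 copies passed the test against the receptor level (adjusted p = 1.0 each by limma's treat), and Rpl19 and Rpl23a had the highest levels among the parents. The 1 locus with no single direction was LOC108350502, a copy of the small-subunit gene Rps2 that is named after its values were seen, with 17.2, 30.0 and 39.5 FPKM, against 24.1, 41.8 and 29.7 FPKM for Rps2. Across the 15 pairs the level of a locus did not follow that of its parent (Pearson r = -0.26 and Spearman rho = -0.23 of log2(FPKM + 1), a description over pairs measured in the same libraries).

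**Figure D3:**
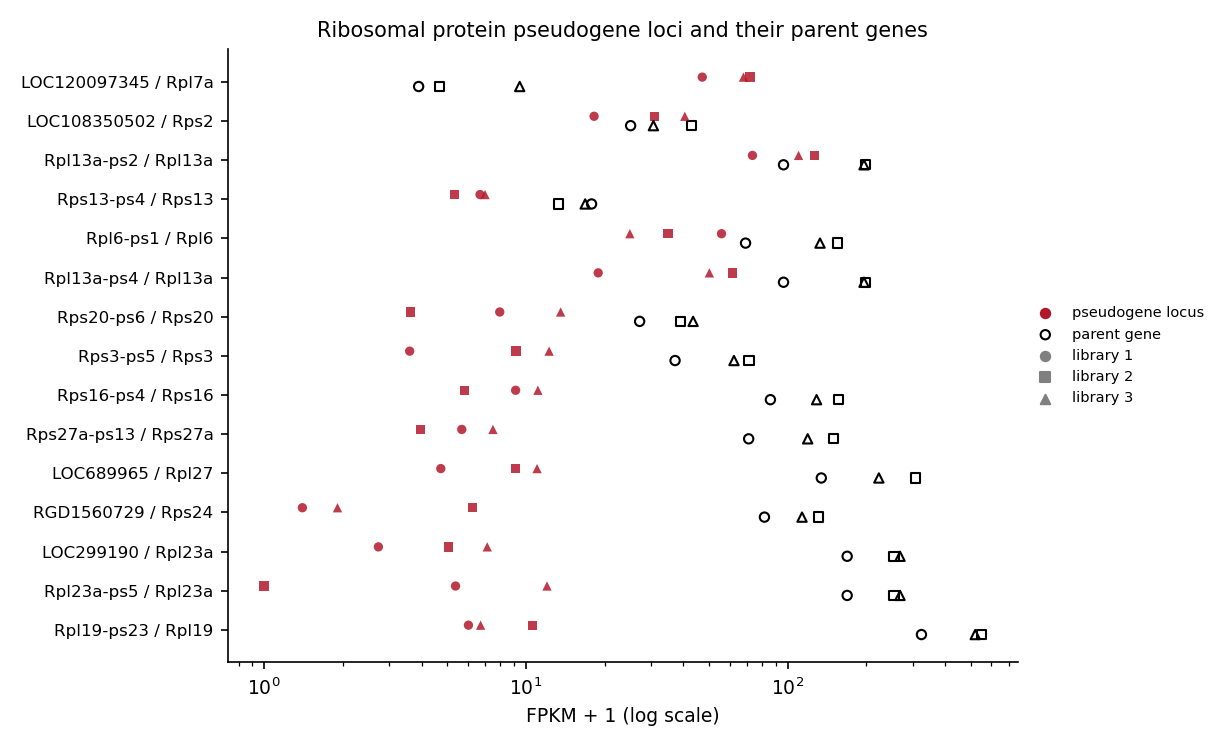
FPKM + 1 (log scale) of 15 ribosomal protein pseudogene loci (filled) and of their parent genes (open), 1 marker shape per library, in order of the difference. In 13 pairs every filled point lies left of the open point of the same library, and in the LOC120097345 and Rpl7a pair every filled point lies right of it.

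The 83 other named copies had medians of 4.93, 4.89 and 4.88 FPKM, and their median log2(FPKM + 1) exceeded that of the unnamed loci by 0.29 ± 0.17 (SD, n = 3; higher in 3 of 3 libraries, exact sign-flip permutation p = 0.25, the smallest possible). Of all 256 other named loci, 0 passed limma's treat at an adjusted p under 0.05, against 2.93% of all rows. At an unadjusted p under 0.05 there were 10 (3.91%), against 5.90% of all rows. In CPM 9 of the 256 passed (3.52%, against 11.7% of all rows). With a pseudocount of 0.1 there were 8 (3.13%, against 5.30%), and without replicate 1 there were 3 (1.17%, against 3.92%). The highest was St13-ps2, a copy of the gene of a cochaperone of Hsp70, at chr6:56435620-56436725, with 17.0, 27.5 and 28.6 FPKM and an adjusted p of 0.0641. St13 has no coding row in the table.

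In 63 pairs of other named loci and parents the copies were again lower. The median locus was -0.91 ± 0.11 from its parent on the log2(FPKM + 1) scale (SD, n = 3 libraries; below in 3 of 3, exact sign-flip permutation p = 0.25, the smallest possible). The locus was below its parent in every library in 39 pairs, above it in every library in 5 and of no single direction in 19. The parents were less abundant than the ribosomal protein genes, with a median of 10.6 FPKM. Here the level of a locus did run with that of its parent across pairs (Pearson r = 0.41, Spearman rho = 0.44, again a description).

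Eef1g-ps9, a copy of the translation elongation factor gene Eef1g at chr15:75090383-75091114, had 14.7, 17.8 and 25.7 FPKM, against 40.5, 95.7 and 81.0 FPKM for Eef1g. Nudc-ps1, a copy of the dynein-associated Nudc at chr4:165491141-165491983, had 31.4, 9.70 and 18.8 FPKM, against 47.4, 107 and 74.4 FPKM for Nudc. Like Rpl6-ps1, Nudc-ps1 was highest in replicate 1, where its parent was lowest.

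Among the 5 copies above their parents in FPKM in every library, Morf4l1-ps4 stood furthest from its parent. In raw counts, which are not divided by length, 0 of the 63 copies were above their parents in every library, and Morf4l1-ps4 had 38, 248 and 173 counts, against 41, 81 and 70 for Morf4l1. This copy of the gene of a chromatin reader of methylated histone H3, at chr13:87433506-87434316, had 6.30, 34.2 and 23.8 FPKM, against 2.57, 4.22 and 3.62 FPKM for Morf4l1, a difference of 2.07 ± 0.91 on the log2(FPKM + 1) scale (SD, n = 3). LOC100909833, a copy of the N-terminal acetyltransferase gene Naa11 at chr3:4475582-4476240, had 12.1, 14.0 and 8.75 FPKM, against 2.07, 3.36 and 4.52 FPKM for Naa11. In both pairs the FPKM values of copy and parent did not overlap, while their counts did. LOC100909833 had 61, 84 and 53 counts, against 54, 105 and 141 for Naa11. Neither copy passed limma's treat against the receptor level (adjusted p = 1.0 each). Wdr82-ps3, a copy of the gene of a subunit of histone methyltransferase complexes, at chr15:43411907-43412509, had 7.35, 7.08 and 14.0 FPKM, against 5.33, 6.77 and 6.21 FPKM for Wdr82. The remaining 2 are Gtpbp4-ps2 and Atmin-ps2, named after their values were seen, at 17.0 and 6.66 FPKM, against 12.6 and 5.38 FPKM for Gtpbp4 and Atmin. LOC502362 is taken for a copy of the translation initiation factor gene Eif3k from an older subunit name in its description. It lies at chr1:172338196-172338561 and had 23.3, 29.6 and 10.7 FPKM, against 11.0, 12.5 and 14.6 FPKM for Eif3k, so it was higher in 2 of 3 libraries.

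**Figure D4:**
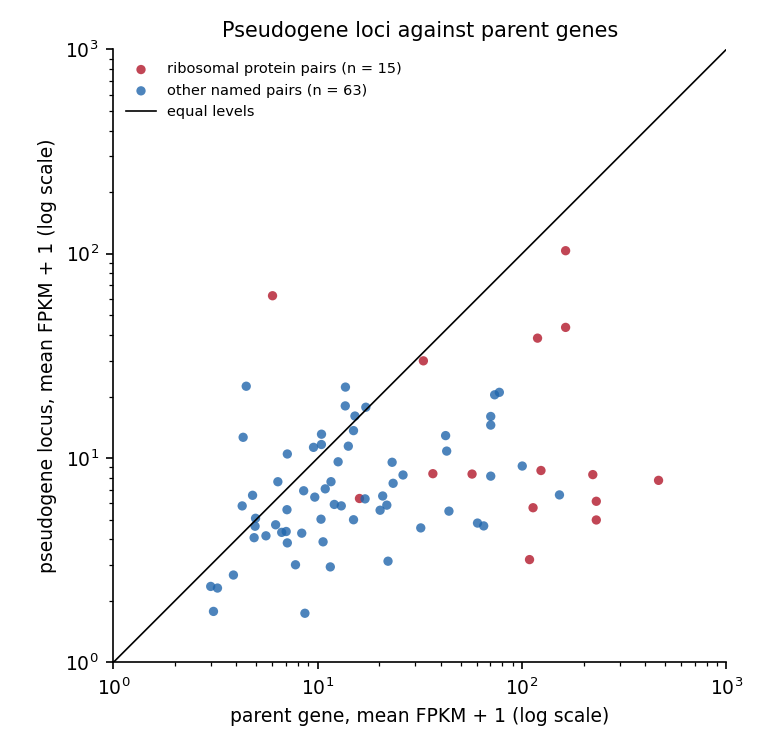
Mean FPKM + 1 over 3 libraries of pseudogene loci (vertical, log scale) against that of the named parent gene (horizontal, log scale), with a line at equal levels. Most of the 15 ribosomal protein pairs and of the 63 other pairs lie under the line, and the ribosomal protein point furthest above it is LOC120097345 at 61.2 FPKM against 5.01 FPKM for Rpl7a.

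The 104 olfactory and vomeronasal receptor pseudogenes were the lowest group of members, with a median of 2.37 ± 0.568 FPKM (SD of the library medians, n = 3). On the log2(FPKM + 1) scale they were 0.27 ± 0.13 above the 216 receptor coding genes (SD, n = 3; higher in 3 of 3 libraries, exact sign-flip permutation p = 0.25, the smallest possible). They differed from the 1314 receptor coding genes, Or symbols included, by -0.12 ± 0.13 on the log2(FPKM + 1) scale (SD, n = 3), a difference with no single sign over the libraries (0.03, -0.16 and -0.24; exact sign-flip permutation p = 0.5). The highest receptor pseudogene was Or1f12-ps1, named after its values were seen, with 11.1, 9.44 and 14.8 FPKM. Because the receptor pseudogenes make up 104 of the 256 other named loci, they set where that group lies: the other named loci differed from the unnamed ones by -0.07 ± 0.08 with the receptor pseudogenes and by 0.21 without them. The 69 rows with a plain gene symbol had medians of 4.93, 4.17 and 3.77 FPKM and spanned 8294 bases at the median, against 729 bases for the 83 named copies. RefSeq calls 66 of these 69 protein-coding, so their pseudogene type in the table does not match that annotation. Of the 83 named copies, RefSeq types 24 as protein-coding and 54 as pseudogene. Of the 104 receptor pseudogenes it types 12 as protein-coding and 91 as pseudogene. Of all 855 members, 270 could be matched to a RefSeq gene by identifier or symbol, of which RefSeq types 160 as pseudogene, 109 as protein-coding and 1 as miscellaneous RNA. Among the 17 ribosomal protein loci, 13 are pseudogenes in RefSeq and 4 protein-coding, namely Rpl8, LOC689965, LOC299190 and RGD1560729.

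The highest pseudogene locus was AC127920.1 at chr15:3698027-3699761, with 260, 484 and 366 FPKM and 3545, 7941 and 6038 counts. It stood 7.02 ± 0.31 (SE) above the receptor median on the log2 scale (adjusted p = 0.00169 by limma's treat). It was followed by ENSRNOG00000066505 at chr18:59058014-59058531, with 112, 152 and 163 FPKM, and AABR07027854.1 at chr17:44254375-44255487, with 105, 113 and 155 FPKM. All 3 were lowest in replicate 1 and passed the test in both definitions of the receptor genes. LOC679731 at chr1:39601959-39603122 varied least among the top 12 relative to its level, with 64.6, 68.7 and 75.3 FPKM. ENSRNOG00000064621 at chr10:36275559-36276041 had 41.4, 52.4 and 54.2 FPKM and AABR07004881.1 at chr1:154618281-154618592 had 30.3, 22.6 and 37.9 FPKM, and both passed. In CPM neither did, at 2.06 and 0.52 above the receptor median on the log2 scale (adjusted p = 1.0 each by limma's treat). ENSRNOG00000063800 at chr15:25095943-25096158 had 18.7, 53.4 and 21.8 FPKM from 33, 111 and 46 counts and did not pass (adjusted p = 0.163). The table, the labels and the RefSeq tables at hand give these unnamed loci no parent, so no parent level is set beside them.

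Of the 855 loci, 264 overlapped the span of another row that is no pseudogene, and 212 lay wholly inside one. The share was 43.5% among rows with a gene symbol, 34.2% among unnamed loci, 32.5% among named copies, 23.5% among ribosomal protein loci and 3.85% among receptor pseudogenes. Overlapping loci did not stand clearly apart in level: their median was 0.09 ± 0.08 above that of the free loci on the log2(FPKM + 1) scale (SD, n = 3; higher in 2 of 3 libraries, exact sign-flip permutation p = 0.5). Of 290 pairs of a locus and an overlapping row, the locus was above the other row in every library in 99 and below it in 98. The test against the receptor level was passed by 13 of the 264 overlapping loci (4.92%) and by 12 of the 591 free loci (2.03%), against 2.93% of all rows.

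Most described loci that lie inside another row had higher levels than that row. They were chosen for a high level or a high difference from the parent, so this follows largely from the choice. Over all 290 pairs the locus was above the other row in every library in 99 and below it in 98. AC127920.1 lies within Usp54, a gene of the deubiquitinase family, on the same strand, and had 370 ± 112 FPKM, against 7.16 ± 0.32 FPKM for Usp54. LOC120097345 lies within Fchsd2, a gene that acts in endocytosis, on the opposite strand, and had 61.2 ± 13.2 FPKM, against 3.45 ± 0.19 FPKM for Fchsd2. Rpl8 had 56.4 ± 15.0 FPKM, against 7.49 ± 1.58 FPKM for Camsap1, a gene of a microtubule-binding protein, on the opposite strand. ENSRNOG00000066505 and AABR07027854.1 lie within long noncoding RNA rows on the opposite strand, at 28.8 ± 4.68 and 14.6 ± 3.38 FPKM (all SD, n = 3). ENSRNOG00000064621 lies within the kinase gene Cdkl3 on the opposite strand, at 3.52 ± 1.11 FPKM. On the same strand, AABR07004881.1 lies within Pgm2l1 at 2.45 ± 0.17 FPKM and Wdr82-ps3 within the metalloprotease gene Adam28 at 2.11 ± 0.48 FPKM. Cdkl3, Pgm2l1 and Adam28 were each below the locus inside them in every library. Rpl6-ps1 was the exception among the described loci, with 54.9, 34.0 and 24.0 FPKM. The long noncoding RNA row around it, AABR07072539.4 on the opposite strand, had 10.8, 90.2 and 78.8 FPKM. The locus was above that row in replicate 1 and below it in replicates 2 and 3. The parts of host reads and of parent reads in these levels were not tested.

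**Figure D5:**
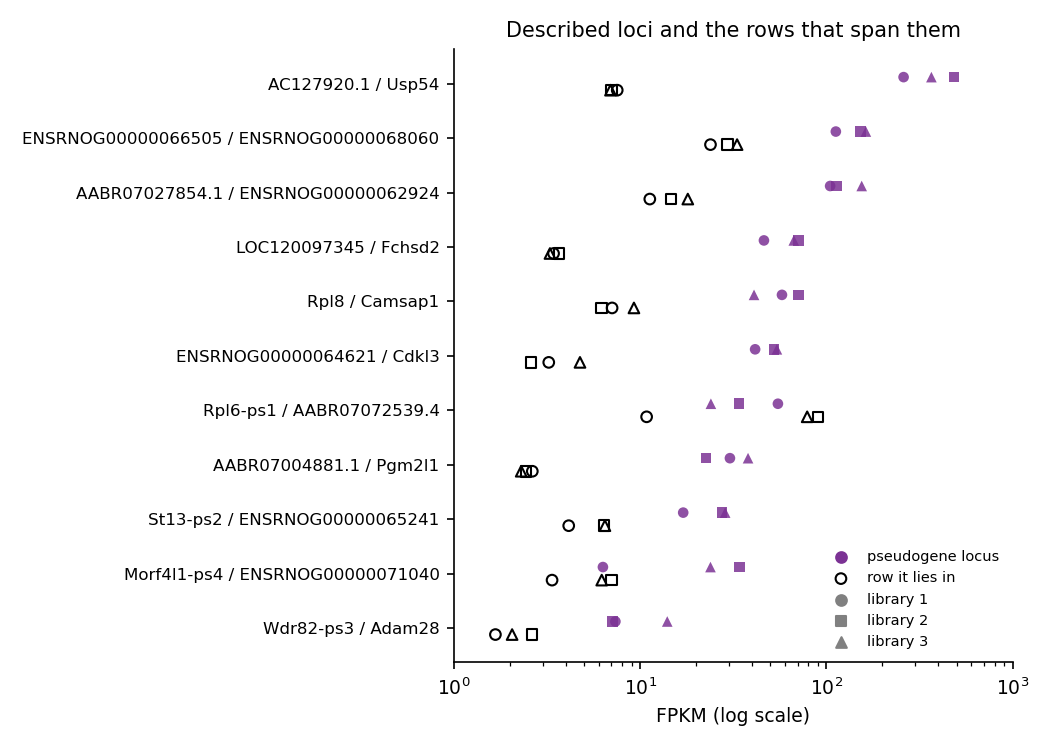
FPKM (log scale) of 11 described pseudogene loci (filled) and of the row whose span holds each of them (open), 1 marker shape per library. In 10 of them the locus lies right of the surrounding row in every library, and in Rpl6-ps1 the order differs between libraries. The loci were chosen for a high level or a high difference from the parent.

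Ribosomal protein loci, like ribosomal protein genes, were often lowest in replicate 1. The level was lowest in replicate 1 in 9 of the 17 ribosomal protein loci (52.9%) and in 82 of the 99 ribosomal protein coding genes (82.8%), against 24.5% of all rows. Among the parents 12 of 13 were lowest in replicate 1, with Rps13 as the exception. Rps13 has 2 coding rows, and only the row with the longer span was used as the parent. Of all 855 pseudogene loci 186 (21.8%) were lowest in replicate 1, which is near the share of all rows. Replicate 1 was also the shallowest library, with 5219920 counts, against 6786182 in replicate 2 and 6618461 in replicate 3. Whether this difference between libraries is one of depth, of RNA or of preparation was not tested.

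Outside the rule, 373 further rows carry a pseudogene name or description but another biotype, and 85 of them are ribosomal protein copies. Their highest member was Rps27a-ps1 at chr5:133180212-133180805, typed protein-coding, with 268, 582 and 543 FPKM, above every pseudogene locus of the rule in each library. The test against the receptor level was passed by 25 (2.92%) of the 855 loci, against 44 (11.8%) of these rows and 2.93% of all rows. The biotype rule thus takes in 17 ribosomal protein copies and leaves out 85. As for the labelled cell type, the 7 mesenchymal surface markers listed were all measured and summed to 40.9 to 47.3 FPKM per library, the 6 fibroblast and matrix markers to 191 to 395 FPKM and the 6 haematopoietic markers to 28.8 to 35.0 FPKM, with none at 0. The median gene of these lists had 5.04, 28.5 and 5.70 FPKM, and the sums and medians put the mesenchymal surface and haematopoietic lists in opposite orders. In a pool of vesicles, few vesicles with much of an RNA and many with little of it cannot be told apart.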

How the data were processed

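Extracellular vesicle RNA was sequenced, with 3 libraries in the 1 group. A stranded low-input total RNA kit was used and ribosomal cDNA was removed, per the labels' protocols. The submitters' processing notes name cutadapt 1.9, FastQC and the build mRatBN7.2. Which aligner and counting tool were used, and how they treated strand and multiply matching reads, is not given in the sources used here. Per the file headers, the deposited table gives raw counts and FPKM per gene, the FPKM divided by the authors by length and by a library total that the table does not give. Rows with 0 counts in every library are not among those used, and depth was 5219920, 6786182 and 6618461 counts. No molecular identifiers are named, so repeated reads of the same molecule cannot be told apart from reads of different molecules in the counts.

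FPKM was tested as log2(FPKM + 1) with limma 3.58.1 (treat, threshold 2, trended prior variance) in R 4.3.3, relative to the receptor median of each library, on all 29684 rows with Benjamini-Hochberg adjustment. Differences of medians within a library were given an exact sign-flip permutation test (numpy 2.4.6, pandas 2.3.3, scipy 1.17.1, Python 3.11.15), and figures were drawn with matplotlib 3.10.9. The treat step was also run on simulated counts with the same dispersion for every row. The spread of these loci need not match that setting, so no error rate is drawn from it. Receptor genes were those with Olr, Vom1r and Vom2r symbols; the table names most olfactory receptors Or, so the wider list was added after the data were seen, as were the 2 alternatives that leave out the Rpl7a pair or the receptor pseudogenes. Overlap was at least 1 base of span on either strand. Parents were read from symbols and descriptions, and where a symbol had several coding rows the one with the longest span was taken. Described loci are the 12 highest, the 5 highest of each group, the 5 pairs with the highest and the 3 with the lowest difference from the parent, and the genes that overlap them; the 3 loci with printed sequences were chosen for those, and the others are marked in the text. The members and lists were chosen with earlier results of these data known. Alternatives were CPM, a pseudocount of 0.1, a minimum mean FPKM of 1, another library total, other prior variances, each replicate left out, 1 value per parent and other overlap rules.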

Additional observations from a re-analysis of the deposited data

How the results depend on the processing

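The number of pseudogene loci above the receptor level, 25, was 62 with a pseudocount of 0.1, 13 with a minimum mean FPKM of 1, 11 with the Or symbols, 12 with a robust trend, 14 with 1 prior variance for all rows, robust or not, 74 above the 99th percentile with no test, and 0 to 33 with a replicate left out; it was 20 in CPM, of which 8 were among the 25. The share of members called, 1.40% to 1.71% with the minimum FPKM and the other prior variances, stood against 1.92% to 2.38% of all rows tested. In CPM the share was 2.34% against 11.7%, and with a pseudocount of 0.1 it was 7.25% against 5.30%. With the Or symbols it was 1.29% against 1.79%, and without replicate 1 it was 3.86% against 3.92%. Above the 99th percentile, with no test, it was 8.65% against 6.42%. Of the differences on the log2 scale, pseudogene loci against receptor genes were -0.89 in CPM, 1.07 with a pseudocount of 0.1, 0.76 with the minimum FPKM, 0.41 with the Or symbols and 0.77 in loci that overlap no other row, and 0.78 to 0.81 with a replicate left out. Pseudogene loci against coding genes were -2.08 in CPM and -0.16 with the minimum FPKM. In CPM, ribosomal protein loci were -0.27 from other named and 0.37 from unnamed loci, other named loci 0.64 from unnamed ones, and loci -4.81 (ribosomal protein) and -2.52 (other) from their parents. Other named against unnamed loci were -0.17 without overlapping loci and 0.21 without receptor pseudogenes, overlapping against free loci 0.20 with the minimum FPKM, and other loci -1.09 from their parents with a pseudocount of 0.1. Ribosomal protein loci were -3.40 from their parents without the Rpl7a pair. CPM carry no length, and the members are short; the cause of the other changes was not tested. Each of these differences kept its sign with any 1 replicate left out.

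Of 22 described loci, 10 were called, and 213 of 242 alternatives gave the same call, 24 another one and 5 the opposite sign: Rpl19-ps23 (-0.36), Rpl23a-ps5 (-1.83) and LOC299190 (-1.20) in CPM, and Rpl23a-ps5 with a pseudocount of 0.1 (-0.13) and without replicate 3 (-0.24, and -0.24 to 1.44 over the 3 replicates left out). Without replicate 3 all 10 calls were lost. No paired analysis was possible because the series has 1 group. At 18 to 22 counts in the median locus, levels near that of the receptor genes rest on few reads.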

Other observations

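Pseudogene loci were found on every chromosome with rows in the table except the mitochondrial one. Chromosome 1 held the most, with 116 of its 3887 rows (2.98%), and among the autosomes the share was highest on chromosome 18, with 33 of 711 rows (4.64%), and lowest on chromosome 13, with 16 of 871 (1.84%). Chromosome X held 51 of 1308 rows (3.90%). These are counts of rows that had reads, not of genes in the genome.

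The 186 loci typed processed_pseudogene spanned 286.5 bases at the median, against 906 bases for the 669 typed pseudogene. Their median level was 5.32, 3.26 and 4.90 FPKM in replicates 1 to 3, against 4.02, 3.30 and 3.47 FPKM, a difference of 0.24 ± 0.22 on the log2(FPKM + 1) scale (SD, n = 3; higher in 2 of 3 libraries, exact sign-flip permutation p = 0.5). Metap2-ps1, a copy of the gene of a methionine aminopeptidase that is named after its values were seen, was highest in replicate 1, as were Rpl6-ps1, Nudc-ps1 and 44.8% of all rows. It had 15.2, 8.36 and 5.89 FPKM, against 24.2, 54.1 and 47.0 FPKM for Metap2, so the parent was lowest where the copy was highest. Of the 60 parents of other named loci, 36 were lowest in replicate 1, against 24.5% of all rows. Of the 63 copies set beside them, 20 were lowest in replicate 1 too. How many pairs have the copy highest where the parent is lowest was not counted. The pairs named for this order are therefore examples, and no general pattern is drawn from them.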
